A study of Mus musculus with 6 samples.

Results

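Transcripts of 9 genes that build or anchor intermediate filaments were followed in mouse calf muscle with and without its motor nerve. They were the epithelial keratins Krt8 and Krt18, the muscle and mesenchymal filament genes Des, Vim and Nes, the desmin partners Synm and Sync, the nuclear lamina gene Lmna and the cross-linker Plec. The genes were chosen by name, and the choice was made with their values in this comparison already known. Their levels and differences are therefore given as a description with no test. Each of the 9 names had 1 row among the 22187 rows of the gene table, and all 9 rows are reported. The control group held 3 samples from male C57BL/6J mice, 12 weeks old, described as normal. The denervated group held 3 samples from mice of the same sex, strain and age. In these mice 2 mm of the left sciatic nerve had been taken out 2 weeks before the muscle was collected. Each sample is taken as 1 mouse, which the labels do not state. No mouse of either group carried a stated transgene or mutation, and no sham operation is described, so the operation and the loss of the nerve cannot be told apart. RNA came from the whole left gastrocnemius, which holds fibres, vessels, nerve branches, connective tissue and blood cells together. In such bulk samples fewer cells of a type and less RNA per cell cannot be told apart.

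Intermediate filaments are rope-like polymers that give cells tensile strength. Desmin is the main one of the adult muscle fibre, where it links neighbouring Z-discs to one another and to the cell membrane, nuclei and mitochondria, while vimentin and nestin are known from immature muscle and from non-muscle cells. Keratins form obligate pairs of a type I and a type II chain. Keratin 18 (type I) pairs with keratin 8 (type II), and the pair is best known from simple epithelia. Synemin and syncoilin bind desmin, plectin ties desmin to Z-discs, costameres, nuclei and mitochondria, and lamin A/C forms the filament mesh under the nuclear membrane.

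Levels are the deposited expression signal, which reads as TPM (a transcript abundance corrected for gene length) times 1 factor per library. Differences are denervated minus control on the scale log2(level + 1), with the standard error (SE) from limma over all genes tested. A gene was tested when its level reached 0.5 in 3 libraries or more, and a tested gene is called when its limma adjusted p is under 0.05. Of 12392 genes tested, 47.3% were called, 22.9% higher and 24.3% lower in denervated muscle. All 9 members were tested, but Krt8 and Krt18 passed the level minimum only through the denervated mice. In the same fit 7 members were above the threshold for higher and 2 for lower, and since the members were chosen on this contrast nothing is read from that count. The 3 values of each group lay apart for all 9, against 57.5% of all tested genes (27.8% with denervated higher and 29.7% with denervated lower). The median log2 difference was 0.90 over the 9 members and -0.01 over all tested genes.

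Library facts bear on every level below. Column totals were 976929 to 1128095. Protein-coding rows held 30.8% to 32.7% of the total in controls and 17.46% to 18.95% in denervated muscle, so the choice of scaling moves all protein-coding genes together. With libraries scaled on their totals less the 20 most abundant genes, the median difference of all tested genes moved to 0.23, with 5015 called higher and 1599 lower. With equal protein-coding totals it moved to 0.60, with 9269 higher and 649 lower, against 2840 and 3017 as deposited. The denervated 2 library had the lowest level of its group for 7 of the 9 members. Over 12 defining genes of the muscle fibre, such as Acta1 and Ckm, the summed level was 38019 to 42403 in controls and 14770 to 17384 in denervated muscle. Not all 12 were abundant, as Myh7 stood at 0.585, 0.473 and 0.53 in controls 1, 2 and 3. As deposited, 9 of them were called lower and 2 higher. The 2 were Myh2 and Myh7, and Myh7 passed the level filter only through denervated mice. The calls changed to 6 lower and 3 higher under the protein-coding scaling.

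**Figure D1:**
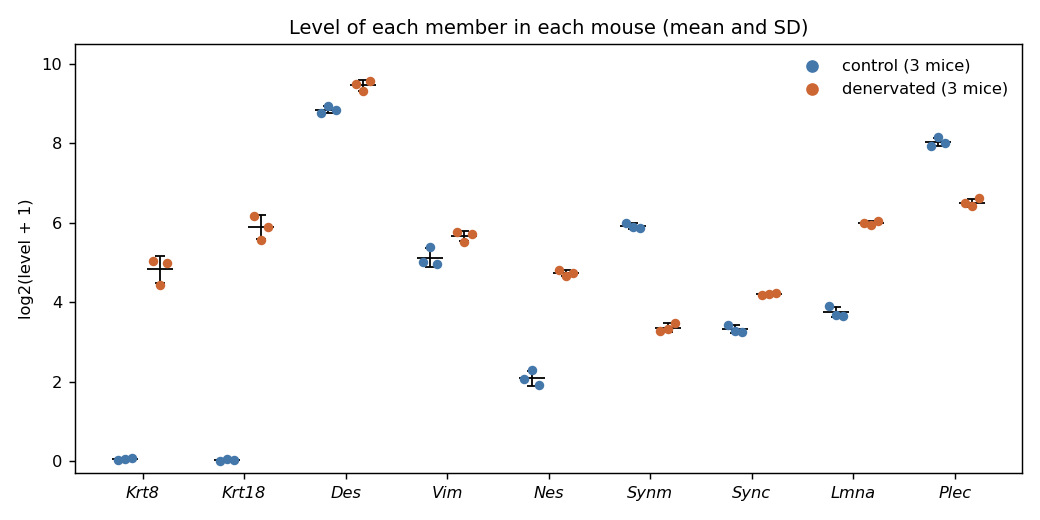
Level of each of the 9 genes in each mouse on the log2(level + 1) axis, with control mice in blue, denervated mice in orange, and black marks for the mean and SD of 3 mice. The groups lie apart for every gene, with Krt8 and Krt18 near 0 in controls, and Synm and Plec as the genes that are lower in denervated muscle.

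The keratin pair was near 0 in every control and well above it in every denervated mouse, where Krt18 overlapped the level of Vim and Krt8 that of Nes. Krt18 (ENSMUSG00000023043) was listed at 0, 0.043 and 0.023 in controls 1, 2 and 3, and at 71.1, 46.7 and 58.8 in denervated 1, 2 and 3. Krt8 (ENSMUSG00000049382) was at 0.021, 0.032 and 0.056 in controls and at 32.0, 20.7 and 30.8 in denervated mice. Every denervated value was far above every control value for both genes, and denervated 2 was the lowest of its group for both. The log2 difference was 5.85 (SE 0.147) for Krt18 and 4.78 (SE 0.16) for Krt8. Because the controls lie near 0, these differences depend on the pseudocount, and with 0.01 in place of 1 they were 11.1 and 9.28. Ordered from the highest log2 difference of the 12392 tested genes, Krt18 took place 5 and Krt8 place 21. Within denervated libraries the level of Krt18 was 2.22, 2.25 and 1.91 times that of Krt8 in mice 1, 2 and 3. No such ratio can be read in controls, where both genes were close to 0.

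Most other keratins stayed low. Of 48 other keratin genes looked for, 15 had a row in the table, and 13 of these stayed under a level of 1 in all 6 libraries. Krt80, a type II keratin, stood at 0.309, 0.161 and 0.248 in controls and at 6.00, 5.22 and 5.04 in denervated mice. Its log2 difference was 2.37 (SE 0.10), with no overlap between the groups. Krt222, a keratin-like gene, stood at 2.15, 1.58 and 0.959 in controls and at 0.645, 0.494 and 0.630 in denervated mice, with a log2 difference of -0.66 (SE 0.167). Krt80 was under the level minimum of 0.5 in all 3 controls and Krt222 in denervated 2, so each passed the filter only through the group where it was high, and no p is given for them. The difference of Krt222 was -0.23 with equal protein-coding totals and -0.46 without control 1 and denervated 2 together. Krt19 and Krt7, other keratins of simple epithelia, and Krt14 and Krt5, keratins of stratified epithelia, did not exceed 0.449 in any library. These low levels were uneven between denervated mice 1, 2 and 3, with Krt5 at 0.127, 0.01 and 0.449 and Krt14 at 0.391, 0 and 0.395. Krt6a was at 0, 0.01 and 0.994 in the same mice.

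**Figure D2:**
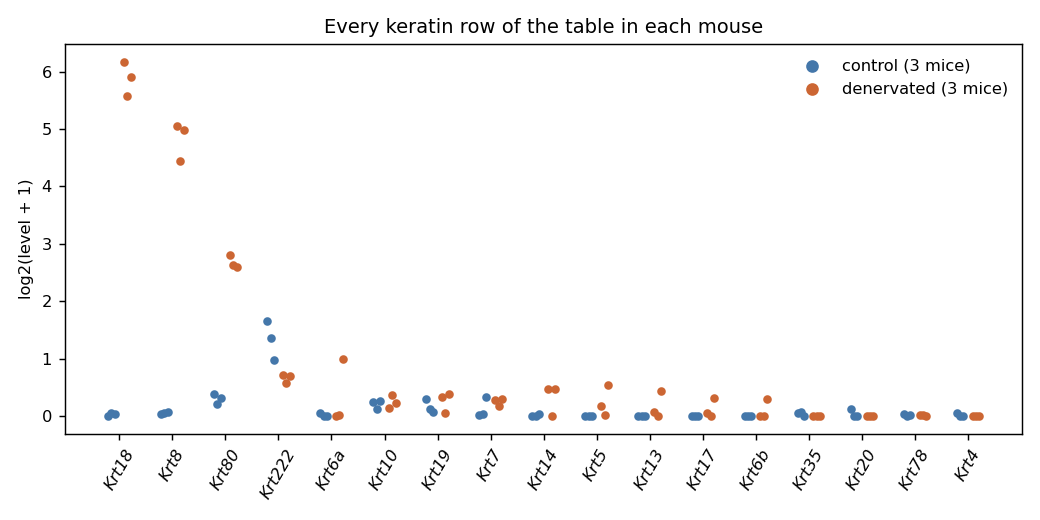
Every keratin row of the table in each mouse, on the log2(level + 1) axis, ordered by mean level, with control mice in blue and denervated mice in orange. Krt18, Krt8 and Krt80 stand above 2 on this axis in denervated mice, and 13 of the 15 other keratin rows stay at or under a level of 0.994.

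Markers of epithelial cells were at or near the bottom of the table while the keratin pair was high. Of 12 epithelial genes, all 12 had a row and 0 reached the level filter. Their summed level was 0.473 to 1.297 in controls and 0.535 to 2.43 in denervated mice, and 4 of the 12 belong to the keratins just described. Epcam, Cldn4, Esrp1 and Krt5 were listed at 0 in all 3 controls. In denervated mice they averaged 0.007, 0.035, 0.0307 and 0.195, in that order. The means of Krt14, Krt7, Krt19 and Esrp2 were also higher in denervated mice, and those of Ovol1, Grhl2 and Cldn7 were lower. Cdh1, the epithelial cadherin, averaged 0.094 in controls and 0.01 in denervated mice. The genes beside the pair on chromosome 15 were looked up after the values had been seen. Krt78 and Krt4 averaged 0.0107 and 0.0143 in controls and 0.0067 and 0 in denervated mice. Eif4b, the next coding gene beyond Krt18, averaged 31.5 ± 3.18 in controls and 31.8 ± 2.06 in denervated mice, with a log2 difference of 0.019 (limma adjusted p = 0.896). Spryd3, farther along on the same side, averaged 2.23 ± 0.498 and 3.56 ± 0.41, with a log2 difference of 0.51 (limma adjusted p = 0.0171).

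The start regions of the pair are shown because both genes were near 0 in the same 3 mice and high in the other 3. Each window, from RefSeq on GRCm38.p6, runs 5′ to 3′ from 250 bases before the gene start to 50 after it. The Krt8 window is chr15:102004293-102004592 on the minus strand, and the Krt18 window is chr15:102027966-102028265 on the plus strand. Capitals mark matches to CANNTG (the E-box bound by myogenic and other helix-loop-helix factors) and to TATAAA (the TATA box), searched on both strands.
Krt8: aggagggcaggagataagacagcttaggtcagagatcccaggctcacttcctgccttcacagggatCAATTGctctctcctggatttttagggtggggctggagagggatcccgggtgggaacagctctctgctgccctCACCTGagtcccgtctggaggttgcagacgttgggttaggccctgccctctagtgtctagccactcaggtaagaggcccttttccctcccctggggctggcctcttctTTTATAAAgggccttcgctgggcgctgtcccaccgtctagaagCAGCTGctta
Krt18: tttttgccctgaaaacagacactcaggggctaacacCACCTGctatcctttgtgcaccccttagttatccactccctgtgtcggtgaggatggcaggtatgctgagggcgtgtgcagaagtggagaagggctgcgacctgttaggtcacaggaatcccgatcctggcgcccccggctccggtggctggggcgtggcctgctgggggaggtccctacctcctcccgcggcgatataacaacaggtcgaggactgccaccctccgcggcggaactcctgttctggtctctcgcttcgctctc
The Krt8 window holds 3 E-box matches and 2 overlapping TATA matches, 1 on each strand, and the Krt18 window holds 1 E-box match and no TATA match. Counted from the gene start, the Krt8 E-box matches begin at -184, -111 and 40. Its TATA matches begin at -3 and -1, so they lie across the start. The Krt18 E-box match begins at -214. An E-box match is present in 72.3% of the 32851 windows of this kind, and a TATA match in 13.6%. AP-1 (TGANTCA), RUNX (TGTGGT), TEAD (CATTCC), GC-box (GGGCGG), CArG-box and MEF2 letters were searched in the same way, and neither keratin window holds one. Those letters are present in 7.81%, 16.8%, 14.7%, 35.7%, 1.63% and 3.19% of all windows, in that order. The GRCm38 coordinates are not those of NCBIM37, the build named by the submitters.

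Desmin stayed the most abundant member in every library and was higher after denervation. Des (ENSMUSG00000026208) stood at 437, 488 and 455 in controls and at 717, 632 and 763 in denervated mice. The lowest denervated value, in denervated 2, was above the highest control value. The log2 difference was 0.61 (SE 0.105), and it was 1.51 with equal protein-coding totals, or 0.91 above the median of all genes under that scaling. An antisense gene that overlaps Des, Gm15179, averaged 5.65 in controls and 0.615 in denervated mice. The strand setting of the counting is not stated, and reads of overlapping genes may therefore be shared.

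Vimentin and nestin were both higher, by unlike amounts. Vim (ENSMUSG00000026728) was at 31.4, 40.9 and 30.0 in controls and at 53.2, 44.9 and 51.8 in denervated mice. Control 2 came close to denervated 2, and the groups did not overlap. The log2 difference of Vim was 0.55 (SE 0.134), and it lay between 0.47 and 0.68 when single libraries were left out. With equal protein-coding totals it was 1.42, or 0.82 less the median of all genes. Nes (ENSMUSG00000004891), a type IV filament gene of muscle precursors and of the fibre region under the nerve ending, was at 3.15, 3.87 and 2.75 in controls and at 26.8, 24.1 and 25.5 in denervated mice. The log2 difference of Nes was 2.64 (SE 0.113), in place 114 among the rises of all tested genes. The level of Nes was 0.0955 ± 0.00449 of that of Vim in controls and 0.511 ± 0.0234 in denervated mice (mean ± SD, n = 3). The level of Vim was 0.0739 ± 0.00907 of that of Des in controls and 0.0710 ± 0.0032 in denervated mice, with overlapping values, and the sign of that small difference turned without control 2. The remaining filament genes of these classes were close to 0. Of 8 looked for, the 7 with a row (Gfap, Prph, Nefm, Nefh, Ina, Bfsp1 and Bfsp2) missed the level filter, with a summed level of 0.27 to 0.394 in controls and 0.139 to 0.217 in denervated mice. The most abundant over the 6 libraries were Prph, a filament gene of peripheral neurons, at 0.173 ± 0.065 and 0.0817 ± 0.0198, and Bfsp2, a filament gene of the lens, at 0.0973 ± 0.101 and 0.007 ± 0.0121, although in denervated mice Bfsp1 and Gfap averaged more than Bfsp2, at 0.0337 and 0.031.

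Vimentin and nestin are also made by cells between the fibres, and their marker lists moved in different directions. As deposited, 22.9% of all tested genes were called higher and 24.3% lower. The counts of each list stand beside those shares unless another scaling is named. Of 10 fibroblast genes tested, 0 were called higher and 6 lower. The summed level of the fibroblast genes was 581 to 681 in controls and 317 to 364 in denervated mice. Of 11 endothelial genes 1 was higher and 9 lower, with sums of 110 to 122 and 65.8 to 67.8, and of 8 pericyte and smooth muscle genes 0 were higher and 7 lower, with sums of 148 to 157 and 70.0 to 76.1. Macrophage genes had 6 of 9 higher and 0 lower, with sums of 17.3 to 21.1 and 36.6 to 41.3. Satellite cell genes had 4 of 6 higher and 1 lower, with sums of 10.6 to 12.0 and 28.8 to 36.9, and Pax7, the defining gene of resting satellite cells, averaged 0.359 ± 0.0521 in controls and 0.459 ± 0.0929 in denervated mice, under the level filter. Schwann cell genes had 2 of 7 higher and 3 lower, with sums of 22.2 to 25.6 and 11.2 to 12.3. Gfap was listed at 0 in all 3 controls. Some of these genes passed the level filter only through the group where they were high: 2 of the 6 higher macrophage genes, 2 of the 4 higher satellite cell genes, and 1 of the 2 higher and 2 of the 3 lower Schwann cell genes. With equal protein-coding totals, under which 73.6% of all tested genes were called higher and 5.16% lower, these counts became 4 higher and 2 lower for fibroblasts, 2 and 3 for endothelium, 2 and 3 for pericytes, 9 and 0 for macrophages, 6 and 0 of 7 for satellite cells and 4 and 3 for Schwann cells. The median of the fibroblast list then lay 0.38 below that of all genes, at 0.22 on the log2 scale. Of the other lists, 3 of 3 adipocyte genes were higher and 1 of 5 tendon genes was higher and 3 lower, each higher gene having passed the filter only through denervated mice, and 0 lymphocyte genes reached the level filter, with a summed level of up to 0.516. The part of any of these cells in the levels of Vim and Nes was not tested.

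The desmin partners synemin and syncoilin went in opposite directions. Synm (ENSMUSG00000030554), a large filament protein that copolymerises with desmin and reaches the costamere, was at 62.9, 58.2 and 56.9 in controls and at 8.61, 9.07 and 10.1 in denervated mice. No denervated mouse came near a control. The log2 difference was -2.56 (SE 0.092), in place 45 among the falls of all tested genes, and with equal protein-coding totals it was -1.71, or -2.31 less the median of all genes. Sync (ENSMUSG00000001333), which binds desmin and the dystrobrevin complex, was at 9.76, 8.60 and 8.51 in controls and at 17.2, 17.6 and 17.7 in denervated mice. The denervated values of Sync were the closest together of any member, and all lay above the controls. Its log2 difference was 0.90 (SE 0.086). The level of Synm was 6.64 ± 0.171 times that of Sync in controls and 0.53 ± 0.0372 times in denervated mice, so the order of these partners was reversed. Both genes overlap a gene on the other strand. Ttc23, which overlaps Synm, averaged 4.196 and 3.377 in control and denervated mice, and Rbbp4, which overlaps Sync, averaged 7.02 and 13.3.

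Start regions of Des and Synm are shown because these partners in the same filament differ in direction. The Des window is chr1:75360042-75360341 on the plus strand, and the Synm window is chr7:67759693-67759992 on the minus strand, with the same source, span and capitals as above.
Des: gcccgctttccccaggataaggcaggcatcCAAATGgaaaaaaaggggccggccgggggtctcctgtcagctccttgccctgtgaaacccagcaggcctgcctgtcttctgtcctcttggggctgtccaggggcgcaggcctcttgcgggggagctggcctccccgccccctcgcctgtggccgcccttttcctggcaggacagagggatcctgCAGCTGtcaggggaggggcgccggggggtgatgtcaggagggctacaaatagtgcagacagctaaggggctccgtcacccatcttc
Synm: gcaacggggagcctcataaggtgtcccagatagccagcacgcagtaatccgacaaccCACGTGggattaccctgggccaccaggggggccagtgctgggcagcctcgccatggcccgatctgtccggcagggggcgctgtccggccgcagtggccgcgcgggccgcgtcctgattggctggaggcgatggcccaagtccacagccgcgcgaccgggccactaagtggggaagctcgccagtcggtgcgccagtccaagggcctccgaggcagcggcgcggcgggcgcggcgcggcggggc
The Des window holds 2 E-box matches and the Synm window 1, and neither holds a TATA match. The Des window also holds 2 GC-box matches, left in lower case. G and C make up 65.3% of the Des window and 72.7% of the Synm window, with a median of 52.7% over all windows. Windows were found for 8 of the 9 members.

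Lamin A/C was higher and plectin lower. Lmna (ENSMUSG00000028063) was at 13.8, 11.9 and 11.6 in controls and at 62.9, 60.1 and 64.5 in denervated mice. The values of each group lay close together and far from the other group. The log2 difference of Lmna was 2.24 (SE 0.093), in place 164 among the rises. Plec (ENSMUSG00000022565) was at 244, 282 and 257 in controls and at 88.7, 84.2 and 97.2 in denervated mice, with no overlap. Its log2 difference was -1.53 (SE 0.097), and -0.64 with equal protein-coding totals, or -1.24 less the median of all genes. The level of Lmna was 0.048 ± 0.00772 of that of Plec in controls and 0.696 ± 0.0275 in denervated mice. Parp10, which overlaps Plec on the same strand, averaged 2.13 and 1.34.

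Other genes of the nuclear envelope were called about as often as genes at large. Of 20 genes tested, 6 were higher, 4 lower and 10 not called, beside 22.9% higher and 24.3% lower over all tested genes, and the median log2 difference was 0.10, against -0.01 for all genes. Lmnb2, which encodes lamin B2, averaged 0.448 ± 0.16 in controls and 2.25 ± 0.268 in denervated mice (log2 difference 1.17), and is given no p because it passed the level filter only through denervated mice. Lmnb1, the other B-type lamin, was at 0.726 ± 0.155 and 0.484 ± 0.119 and was not called. It was under the level minimum in denervated 1 and 2 (0.401 and 0.432), so it passed the filter only through controls and is given no p. Syne1, a linker from the nucleus to the cytoskeleton, rose from 6.76 ± 0.695 to 13.7 ± 0.428, and Lemd2, an inner membrane protein, from 2.49 ± 0.364 to 4.27 ± 0.0992 (limma adjusted p = 0.000153 and 0.00224). Sun2, the inner membrane partner of such linkers, fell from 21.9 ± 0.733 to 6.02 ± 0.53 (log2 difference -1.71, limma adjusted p = 6.5e-06). Syne2 and Tmpo, another linker and a lamina-associated protein, had log2 differences of -0.70 and -0.70 as deposited, which turned to 0.03 and 0.032 with equal protein-coding totals. Under those totals 14 genes were higher and 1 lower, near the 73.6% and 5.16% of all tested genes.

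Among other plakins and desmosome-type linkers, 4 of 6 tested genes were higher and 0 lower, with 1 lower under quantile normalization, beside 22.9% and 24.3% of all tested genes. Of the 4, Pkp2, a plakophilin, passed the level filter only through denervated mice. The median log2 difference was 0.67. With equal protein-coding totals 5 of 6 were higher and 0 lower, beside 73.6% and 5.16% of all tested genes. Macf1, a plakin that joins microtubules and actin, rose from 16.9 ± 0.782 to 37.1 ± 2.31 (log2 difference 1.09, limma adjusted p = 4.11e-05). Jup, plakoglobin, rose from 19.002 ± 2.41 to 39.3 ± 5.19 (log2 difference 1.011, limma adjusted p = 0.000518), and Pkp4, a plakophilin, from 5.08 ± 1.16 to 8.77 ± 1.33 (log2 difference 0.69, limma adjusted p = 0.00854). Dst, the plakin dystonin, was at 44.6 ± 2.69 and 38.2 ± 3.34 and was not called (limma adjusted p = 0.0943). Dsp, desmoplakin, the linker of keratin filaments in epithelia, was listed at 0 in all controls and averaged 0.177 in denervated mice. Dsp, Evpl, Dsg2, Dsc2, Pkp1 and Pkp3 stayed under 0.5 in all 6 libraries.

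Partners of desmin and plectin at the Z-disc and costamere went both ways. Of 23 tested, 5 were higher and 9 lower, with a median of -0.11, beside 22.9% and 24.3% of all tested genes. The counts became 9 and 5 with totals without the 20 most abundant genes, where 40.4% and 12.9% of all tested genes were called, and 17 and 2 of 24 with equal protein-coding totals, where 73.6% and 5.16% were. Pdlim3, a Z-disc adaptor, rose from 42.3 ± 0.667 to 154 ± 28.1 (log2 difference 1.83, limma adjusted p = 2.65e-05). Tln1 and Flnc, talin 1 and the muscle filamin, had log2 differences of 0.99 and 0.93 (limma adjusted p = 8.11e-05 and 0.000419). Tln2, the other talin gene, went the other way, with a log2 difference of -0.60 (limma adjusted p = 0.00082). Myot, the Z-disc protein myotilin, fell from 344 ± 6.08 to 122 ± 11.7, and Ldb3, the Z-disc protein ZASP, from 393 ± 24.2 to 167 ± 26.3 (limma adjusted p = 1.55e-05 and 0.000161). Ank2, an ankyrin of the costamere, had a log2 difference of -0.89 (limma adjusted p = 0.000111), which was -0.10 and not called with equal protein-coding totals (limma adjusted p = 0.296).

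Chaperones and proteases of desmin changed in both directions too, with 8 of 18 higher and 5 lower and a median of 0.13, beside 22.9% and 24.3% of all tested genes. Hspb8, a small heat shock protein that works with Bag3, rose from 67.1 ± 4.61 to 595 ± 67.7 (log2 difference 3.13, limma adjusted p = 1.08e-06). Hspb7 rose from 44.7 ± 23.0 to 126 ± 21.2 and Hspb1 from 69.2 ± 7.96 to 150 ± 21.6 (limma adjusted p = 0.00411 and 0.000404). Capn3, the muscle calpain, fell from 27.3 ± 1.64 to 6.92 ± 0.0765 (log2 difference -1.84, limma adjusted p = 3.32e-06), and Hspb6 from 212 ± 52.7 to 82.1 ± 15.7 (limma adjusted p = 0.00108), a call lost with equal protein-coding totals (limma adjusted p = 0.0712). Capn1, a ubiquitous calpain, had a log2 difference of -0.52 (limma adjusted p = 0.0111), which was 0.32 with equal protein-coding totals. Under those totals 15 were higher and 1 lower, beside 73.6% and 5.16% of all tested genes.

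Genes of immature and regenerating fibres were mostly higher, with 13 of 15 called higher and 0 lower, beside 22.9% and 24.3% of all tested genes. Of the 13, 7 (Mymx, Chrng, Myf5, Myh3, Myh8, Tmem8c and Tnnt2) passed the level filter only through denervated mice, so the count is a description. With equal protein-coding totals 14 of 15 were higher and 0 lower, beside 73.6% and 5.16% of all tested genes. This list was drawn up with earlier results of these mice known, so its direction is no independent evidence. Its largest differences were 5.26 for the fusion gene Mymx, listed as Gm7325 (ENSMUSG00000079471), 5.00 for the fetal receptor subunit Chrng and 4.98 for the differentiation factor Myog, of which Myog alone was above the minimum in every control (limma adjusted p = 2.81e-07). Igf2 and Mest, at 0.29 and -0.20, were not called (limma adjusted p = 0.197 and 0.273).

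**Figure D3:**
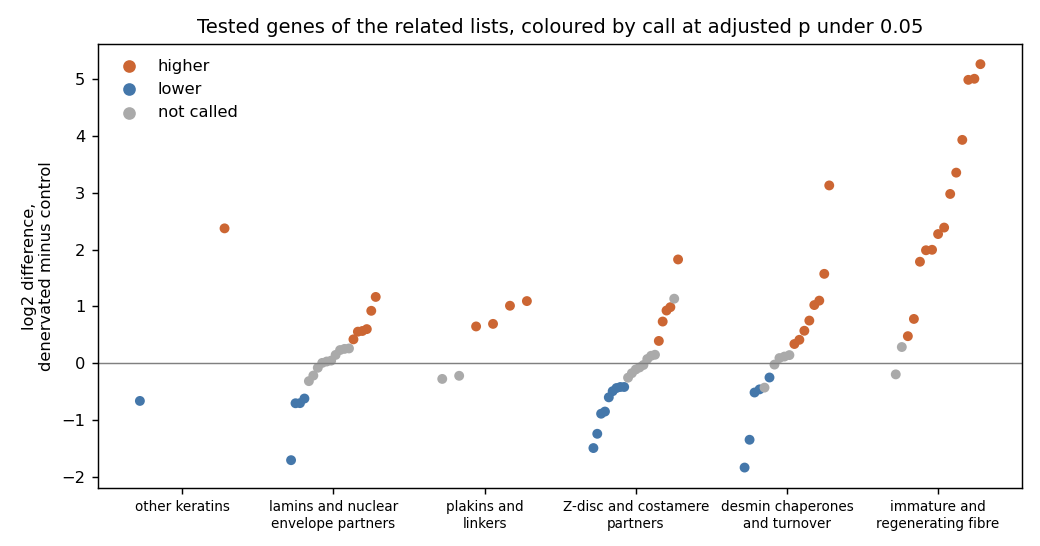
Log2 difference, denervated minus control, of every tested gene in 6 related lists, 1 point a gene, coloured by its call in the fit over all genes. The nuclear envelope, Z-disc and chaperone lists hold calls in both directions, while 13 of 15 immature-fibre genes are called higher, 7 of them having passed the level filter only through denervated mice.

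Levels corrected for length let the members be ordered within each group. In controls the order was Des, Plec, Synm, Vim, Lmna, Sync and Nes, each apart from the next in all 3 mice, with Krt8 and Krt18 overlapping at the bottom. In denervated mice it was Des, Plec, Lmna, Krt18, Vim, Krt8, Nes, Sync and Synm. There Lmna and Krt18, Krt18 and Vim, and Krt8 and Nes overlapped between mice, and the other neighbours did not. Synm moved from the third place to the last.

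Shares within a library do not depend on the scaling between libraries, whereas the summed level of the 9 genes does. As deposited, that sum was 839 ± 48.8 in controls and 1046 ± 94.1 in denervated mice. Des made up 54.8% ± 0.471 of that sum in controls and 67.3% ± 0.82 in denervated mice. Plec went from 31.1% ± 0.592 to 8.62% ± 0.37, and Synm from 7.09% ± 0.681 to 0.89% ± 0.0841. Lmna went from 1.49% ± 0.21 to 6.00% ± 0.345. The keratins Krt18 and Krt8 held 5.61% ± 0.875 and 2.64% ± 0.393 of the sum in denervated mice, and under 0.01% in every control. Vim held 4.05% ± 0.476 and 4.78% ± 0.157.

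**Figure D4:**
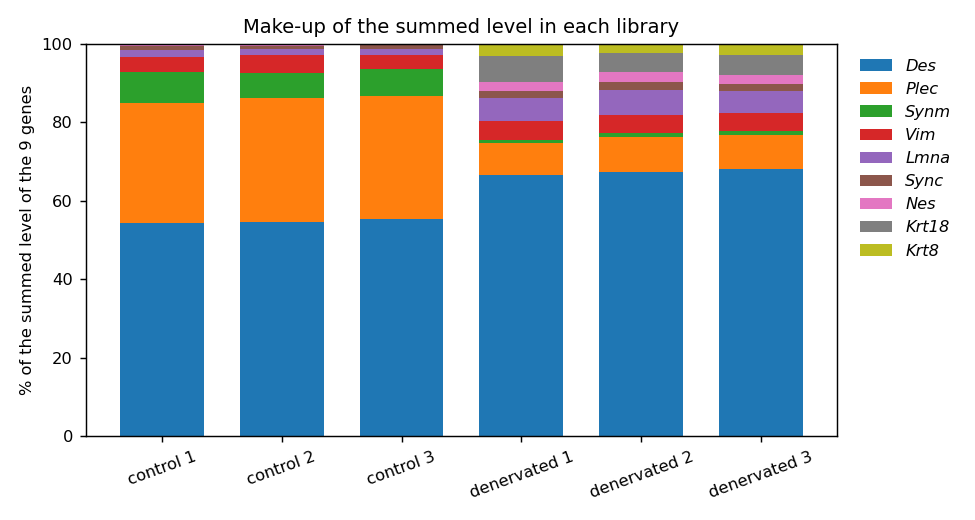
Share of each gene in the summed level of the 9 genes, 1 bar a library, from 0 to 100%. The Plec and Synm segments shrink from 31.1% and 7.09% on average in controls to 8.62% and 0.89% in denervated mice, while Des, Lmna and the keratins take larger shares.

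No scaling changed the direction of a member. Under the 5 other scalings the 7 genes that were higher stayed higher and the 2 that were lower stayed lower, with Plec closest to 0 among the falls at -0.64 and Des and Vim the smallest rises at 0.63 and 0.56 under median-ratio scaling. Leaving out single libraries gave 0.55 to 0.69 for Des, -1.58 to -1.47 for Plec and -2.62 to -2.51 for Synm. It gave 5.71 to 6.01 for Krt18 and 4.67 to 4.97 for Krt8.

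**Figure D5:**
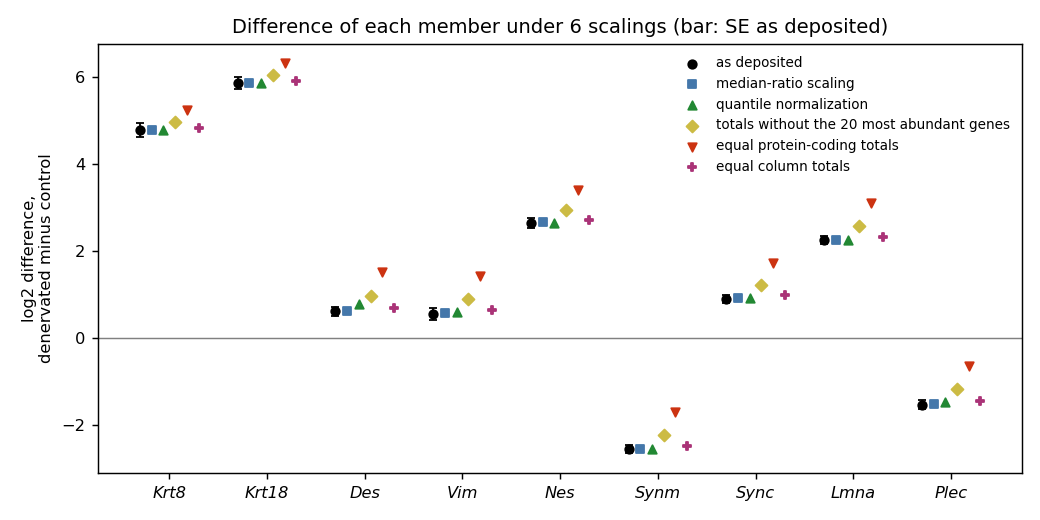
Log2 difference, denervated minus control, of each of the 9 genes as deposited (black, with SE) and under 5 other scalings. Equal protein-coding totals give the highest value for every gene, from -1.71 for Synm to 6.30 for Krt18, and no point crosses 0.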

How the data were processed

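RNA sequencing of 6 muscles was deposited as 1 table of expression signal per gene. Per the submitters' processing notes, the build was NCBIM37 and the tools included RSEM 1.3.0, Bowtie2 2.2.9 and, for an unstated step, edgeR 3.12.1, with settings and strand handling not stated. The deposited signal reads as TPM times 1 library factor between 0.977 and 1.13: at least 99.97% of values above 0 and under 100 lay within 0.00055 of a whole multiple of 0.01 times that factor. These are not counts, so depth is unknown and no count test was run. Levels were taken as log2(level + 1), genes at 0.5 or more in at least 3 libraries were kept (2 when a library was left out), and limma 3.58.1 (R 4.3.3, trended empirical Bayes) compared the groups, with p-values adjusted over every tested gene by the Benjamini-Hochberg method. The code was tested on simulated data. The labels do not say more of the replicates than that they are separate samples, and each is taken as 1 mouse. The p-values set the difference between groups against the spread between these samples. Members and lists were chosen with earlier results of these data known. In each list the text names the called genes with the largest differences, at most 3 in each direction, with others named after their values were seen. Alternatives were other pseudocounts, filters and scalings, a replicate block and libraries left out. An exact test of 3 against 3 cannot go below p = 0.1. Promoter windows were matched by gene symbol, and overlapping genes came from GENCODE.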

Additional observations from a re-analysis of the deposited data

How the results depend on the processing

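All 9 members kept their direction under every alternative run; 28 of their values moved by more than the spread between replicates and 143 did not. Scaling had the widest effect on counts, and the cause was not tested. With totals without the 20 most abundant genes, 5015 genes were called higher and 1599 lower, with 12 nuclear envelope genes higher, 9 Z-disc partners higher and 5 lower, and 2 chaperone and turnover genes lower. With equal protein-coding totals, 9918 genes were called, 9269 higher and 649 lower, with 0 other keratins lower, 14 nuclear envelope genes higher and 1 lower, 17 Z-disc partners higher and 2 lower, and 15 chaperone and turnover genes higher and 1 lower. Under those totals the log2 differences of Capn1 (0.319), Egfl7 (0.177), Fmod (0.166), Gsn (0.421), Syne2 (0.03) and Tmpo (0.032) turned from negative to positive. Of these genes only Capn1 and Gsn were then called (limma adjusted p = 0.0473 and 0.00378). Egfl7, Fmod and Gsn are the most abundant genes of the endothelial, tendon and fibroblast lists. Quantile normalization called 1 plakin lower. Leaving out 1 library gave 4836 to 5340 calls and 0 to 1 plakins lower, and the Vim to Des log2 ratio difference ran from -0.138 to 0.027. Without control 1 and denervated 2 together, 0 other keratins and 3 chaperone and turnover genes were lower. Deviations from the group mean had r = -0.007, -0.099 and 0.019 between same-numbered samples, and -0.126 to 0.12 between the others. With 3 samples a group these values cannot decide whether the numbers pair the samples, and the labels state no pairing. With the replicate block 5408 genes were called, 2636 higher and 2772 lower. Low levels limit precision, and the depth behind them is unknown.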

Other observations

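The tested genes whose profile over the 6 libraries lay closest to each member were looked up, by the root mean square difference of log2(level + 1) after subtraction of each gene's control mean. Krt18 and Krt8 lay near 0 in controls, so which genes lie closest to them depends on the pseudocount of 1. With 0.01 their log2 differences were 11.1 and 9.28, and the closest genes under that setting were not looked up. For Krt18 the closest were Cpne2, a copine, at 0.175 and Gadd45a, a stress-response gene, at 0.212. Cpne2 averaged 1.40 ± 0.303 in controls and 152 ± 14.6 in denervated mice. For Krt8 they were Runx1, a transcription factor, at 0.182 and Myog at 0.217, and Runx1 averaged 0.33 ± 0.155 and 34.0 ± 1.99. For Synm they were Ky, a Z-disc-associated gene, at 0.091 and Klhl31 at 0.099. Ky averaged 43.0 ± 0.934 in controls and 7.00 ± 0.837 in denervated mice, and Klhl31 73.4 ± 1.2 and 12.6 ± 0.871. For Lmna the closest was Aldh2 at 0.071, for Nes Rpl3 at 0.132, for Plec Actr3b at 0.047, for Sync Tor1a at 0.029, for Des Fam192a at 0.036 and for Vim Gm10254 at 0.067. Gm10254 was not called with the replicate block (limma adjusted p = 0.0511), nor without control 1, control 3, denervated 1 or denervated 3 (limma adjusted p = 0.0651, 0.0682, 0.0737 and 0.0654).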
